A study of Mus musculus with 6 samples.

Results

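The cell cycle and DNA replication genes described here were 40 genes fixed by name. They comprised 4 cyclins of the G1 phase, 15 genes of DNA replication and 21 genes of mitosis. Of the 40, 39 had a probe set that the platform gene table pairs with that symbol alone, and Ccnb1 was not analysed here. They held 92 of the 45037 probe sets other than controls, and 39 of 18193 named genes. Each gene was represented by its probe set with the highest mean log2 signal over the 6 arrays, and its other probe sets served as a check. The RNA came from the gastrocnemius, the large calf muscle, of male C57B1/6 mice with a normal karyotype, and each sample was hybridised to its own Affymetrix mouse genome array. The 3 young arrays were replicates 1, 2 and 3, and the 3 aged arrays were replicates 51, 52 and 53, with no treatment or genetic change named for either group. The ages of the mice were not given in these sources. The labels do not say whether each array had its own animal, and the p-values then describe only how these samples spread, possibly for technical reasons. In whole muscle, fewer cells of a type and less RNA per cell cannot be told apart.

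A cell that enters the cycle first raises the D-type cyclins, which respond to growth signals, and then cyclin E. These drive the kinases that free E2F transcription factors, and E2F in turn drives genes that load the MCM helicase on DNA, copy the genome and make deoxynucleotides. Later, genes for the mitotic spindle, the kinetochore and chromosome separation are switched on together, many through a promoter element called the CHR and neighbouring CCAAT boxes. Skeletal muscle fibres are postmitotic, so in muscle these transcripts are known mainly from satellite cells, fibroblasts, vessel cells and blood-derived cells that divide.

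The promoter windows of the genes carried these elements in different shares for replication and for mitosis. The windows come from RefSeq (GRCm38.p6) and run from 250 bases before to 50 bases after the gene's start, and 31 of the 40 genes matched by symbol. The motifs were searched on both strands: TTTGAA for the CHR, CCAAT for the CCAAT box, and TTTCCCGC, TTTCGCGC, TTTGCCGC or TTTGGCGC for E2F. A gene with several starts counted once if any window held the motif. Of 17 mitosis genes 12 (70.6%) held TTTGAA, against 20.2% of 27025 genes, and all 12 also held CCAAT, a pairing found in 8.97% of genes. Of 13 replication genes 7 (53.8%) held an E2F motif, against 2.6% of all genes, and 1 held TTTGAA. None of the 17 mitosis genes held one of these E2F motifs. A match is a description of the letters and not a site of binding.

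The 250 bases before the start of 4 genes are printed because Mki67, Mcm5 and Rrm2 were lower in aged muscle by the test below and Top2a had the second largest difference among mitosis genes. Capitals mark the motifs on either strand. Mki67 is at chr7:135716380-135716629 on the minus strand, Top2a at chr11:99024190-99024439 on the minus strand, Mcm5 at chr8:75109259-75109508 on the plus strand and Rrm2 at chr12:24708004-24708253 on the plus strand.
Mki67: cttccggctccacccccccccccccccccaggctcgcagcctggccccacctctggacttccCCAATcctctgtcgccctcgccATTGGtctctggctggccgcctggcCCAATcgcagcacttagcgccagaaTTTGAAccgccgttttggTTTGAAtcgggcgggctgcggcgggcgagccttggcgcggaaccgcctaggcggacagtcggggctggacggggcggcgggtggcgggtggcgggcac
Top2a: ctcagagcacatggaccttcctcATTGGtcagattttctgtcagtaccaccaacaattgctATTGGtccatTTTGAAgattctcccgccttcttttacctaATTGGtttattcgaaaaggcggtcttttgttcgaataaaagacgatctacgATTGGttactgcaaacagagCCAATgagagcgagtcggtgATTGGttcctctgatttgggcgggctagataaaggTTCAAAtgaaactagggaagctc
Mcm5: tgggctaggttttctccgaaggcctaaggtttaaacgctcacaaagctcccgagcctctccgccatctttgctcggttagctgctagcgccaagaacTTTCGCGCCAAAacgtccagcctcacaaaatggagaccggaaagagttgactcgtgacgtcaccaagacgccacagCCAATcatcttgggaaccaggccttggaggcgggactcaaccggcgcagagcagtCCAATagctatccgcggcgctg
Rrm2: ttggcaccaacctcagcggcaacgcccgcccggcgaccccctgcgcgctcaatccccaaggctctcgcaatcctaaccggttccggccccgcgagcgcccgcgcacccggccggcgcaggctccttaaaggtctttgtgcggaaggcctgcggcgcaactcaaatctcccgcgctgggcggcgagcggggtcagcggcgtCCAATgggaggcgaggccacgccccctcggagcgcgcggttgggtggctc
The Mki67 window held 2 copies of TTTGAA, at 116 and 98 bases before the start, with 3 CCAAT boxes upstream of them. The Top2a window held 2 copies of TTTGAA and 6 CCAAT boxes. In Mcm5 the capital run holds 2 overlapping E2F motifs on opposite strands, and 2 CCAAT boxes follow it. In Rrm2 the only match was 1 CCAAT box. The plot of motif shares gives the same counts for the further cell cycle genes.

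**Figure D1:**
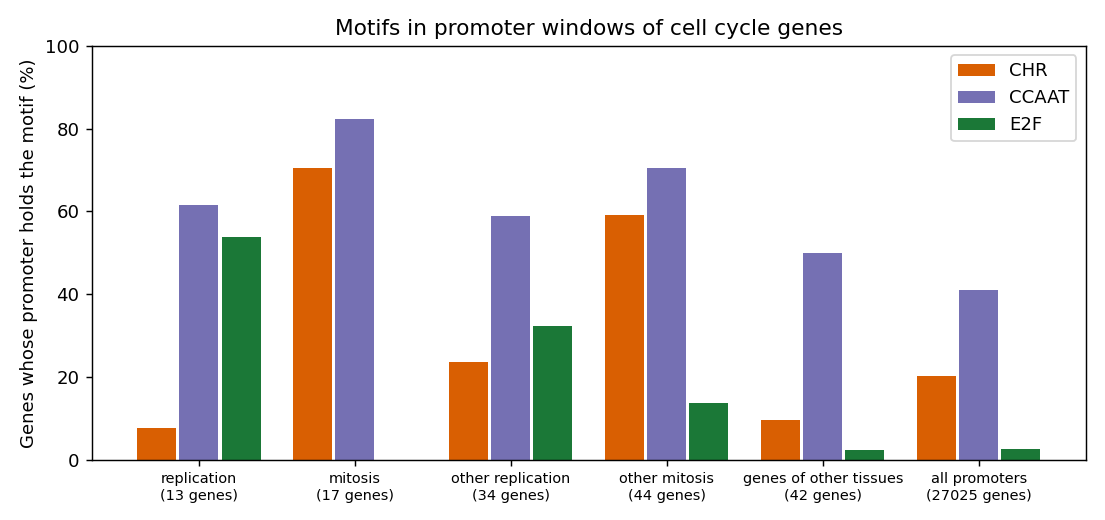
Share of genes (%, vertical axis) whose promoter window holds TTTGAA (CHR), CCAAT or an E2F motif, for the replication and mitosis genes, other genes of both processes, genes of other tissues and all genes. TTTGAA stood in 70.6% of mitosis and 7.69% of replication genes, and E2F motifs in 53.8% of replication genes and in 0 of 17 mitosis genes.

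The value table holds no detection calls, so background was read from 52 genes of other tissues, such as photoreceptor, sperm, egg and pituitary genes, with Xist in these male mice. A gene was taken as above background on an array where its signal exceeded the 90th percentile of those genes there. That level lay between 912 and 1358 on the young and between 1155 and 1983 on the aged arrays. The level was highest on aged replicates 51 and 52, so a gene of the same signal was counted there less readily.

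By this measure 5 of 39 cell cycle genes were above background on all 6 arrays: Ccnd1, Ccnd2, Ccne1, Mcm2 and Tpx2. On all 3 young arrays 18 were above it, and on all 3 aged arrays 6. By array, 25, 21 and 20 genes were above it on young replicates 1, 2 and 3, and 9, 8 and 19 on aged replicates 51, 52 and 53. The share of all genes above this level was not counted, so these counts alone do not show a change particular to cell cycle genes. Against the median of all probe sets on each array the counts were 27, 26 and 24 on the young and 25, 18 and 29 on the aged arrays. By this second measure the groups overlapped, with aged replicate 53 the highest of the 6 arrays. No gene was above background on all 3 aged arrays and on 0 young arrays. Mki67 and Ccna2 showed the opposite, above background on all 3 young and on 0 aged arrays. Of the mitosis genes 9 of 20 were not above background on any array, against 3 of 15 replication genes and 0 of 4 G1 cyclins. These 12 were Cdc6, Gins1, Tk1, Ccnb2, Bub1, Bub1b, Plk1, Aurkb, Kif11, Kif20a, Nusap1 and Ube2c. The call rests on the probe set that stood for each gene: other Kif11 probe sets exceeded the level on 2 arrays, and no other probe set of the remaining 11 genes did on any. Of the genes above it on all 6 arrays, Ccne1 and Mcm2 each had another probe set that was under it on every array (65 to 826 and 207 to 953). For Tpx2 another bright probe set was above it on every array (4656 to 29252), and the dimmer ones mostly were not. The number of members above background on all 6 arrays was 1 at the 95th and 9 at the 75th percentile of the reference genes, and 14 against the median of all probe sets.

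**Figure D2:**
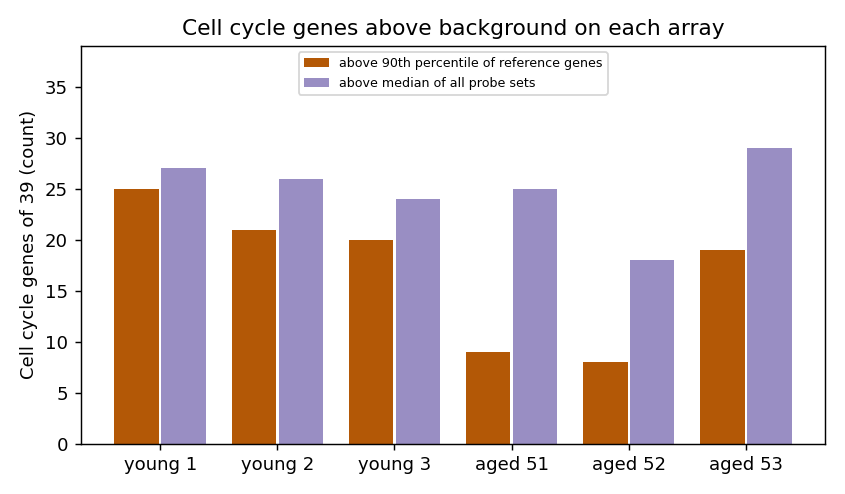
Number of the 39 cell cycle genes (vertical axis) above background on each array, by the 90th percentile of 52 genes of other tissues or by the median of all probe sets. By the first measure the young arrays hold 20 to 25 genes and the aged arrays 8 to 19, and by the second 24 to 27 and 18 to 29.

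The comparison of aged with young muscle asks which of these transcripts differ with age. Mki67, Ccnd1, Rrm2 and Mcm5 fell in aged muscle, and no cell cycle gene rose. Mki67, the proliferation antigen that coats mitotic chromosomes, was at least 2.8-fold higher in young muscle, with 10.6-fold between the measured means and the aged signals under the background level. Ccnd1 (cyclin D1) was 4.47-fold higher in young muscle, with the signals of aged replicates 51 and 52 just above the background level. Rrm2, the small subunit of ribonucleotide reductase, was 4.79-fold and Mcm5, a subunit of the replicative helicase, 4.11-fold higher in young muscle. Both of these folds rest on aged signals that were above background on aged replicate 53 alone. Each fold also comes from 1 probe set of the gene. The other tested probe sets had log2 differences of -0.42 for Rrm2 and -0.31 for Mcm5, and neither passed the test. Each difference is the aged minus the young mean log2 signal ± the standard error from limma (n = 3 per group), and adjusted p-values are limma's, adjusted by Benjamini-Hochberg across every probe set tested.

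A probe set was tested where its mean log2 signal reached 9.08, the median of all probe sets, and 26 of the 39 genes passed this filter. Of these, 4 fell, 0 rose and 22 did not pass the adjusted threshold of 0.05. Over all 11763 tested genes 1.00% fell and 0.391% rose, 1.39% together. At an unadjusted p under 0.05, 10 of the 26 were lower and 2 higher, against 6.60% and 4.78% of all tested genes. All 3 aged arrays lay below all 3 young arrays for 9 of the 26 genes, against 9.63% of tested genes, and above them for 2, against 7.58%. Over all 39 genes, dim ones included, the counts were 9 and 4, against 7.51% and 7.33% of all 18193 genes. Mki67, Ccne2 and Mcm6 had an aged mean below the filter and Nusap1 a young mean below it, so they passed through the group where they were brighter. With no filter the fit covered all 39 genes, and the same 4 passed, all lower, against 0.693% of all genes lower and 0.291% higher.

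Over all 39 genes, dim ones included, 26 differences were negative and 13 positive, with a median of -0.56, against 0.045 over all 18193 genes. The 26 tested genes had a median of -0.81, against 0.0028 over all tested genes. The 13 dim genes had a median of 0.43, with 8 of them positive. Dim genes as a whole were at 0.20, and the 52 genes of other tissues at 0.54. Scaling mattered little to direction: quantile normalization put the median of the 39 genes at -0.66, and centring each array on its median, which moved the median of all tested probe sets by over 0.1 to -0.11, put it at -0.67. No tested cell cycle gene changed direction under quantile normalization, and centring moves all genes alike by less than the smallest positive difference among them.

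**Figure D3:**
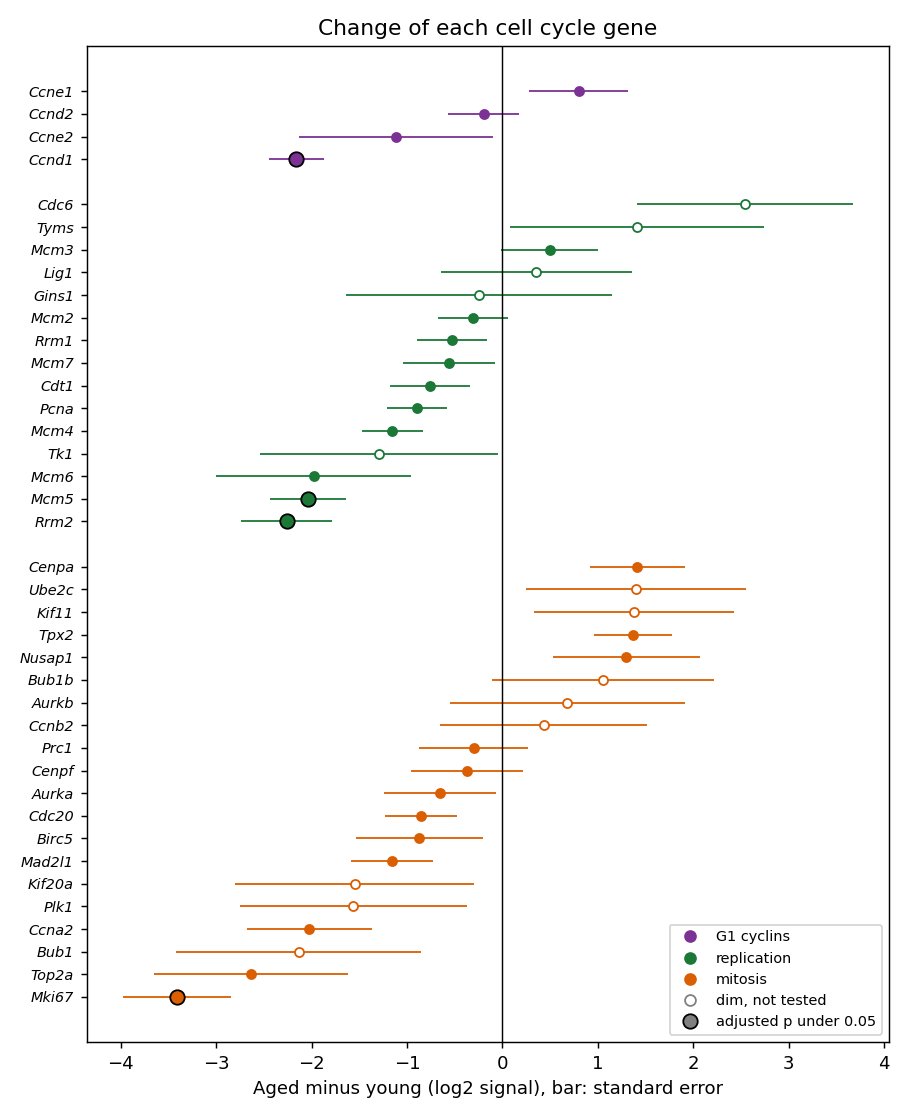
Aged minus young difference in log2 signal (horizontal axis, bars give the standard error from limma, 3 arrays per group) of the 39 genes by role; open points are dim genes that were not tested and outlined points passed an adjusted p of 0.05. Outlined genes are Ccnd1, Mcm5, Rrm2 and Mki67, all to the left of 0.

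Among the G1 cyclins, Ccnd1 fell and the other 3 did not pass. Ccnd1, the cyclin that couples growth signals to the start of the cycle, had signals of 12082, 8297 and 11512 on young replicates 1, 2 and 3. On aged replicates 51, 52 and 53 the signals were 2064, 2091 and 2986. The background levels there were 1983, 1940 and 1155, so aged replicates 51 and 52 were just above background. Every young array lay well above every aged array, and the difference was -2.16 ± 0.29 (adjusted p = 0.00223). Its other probe sets were at -1.82 and -1.45, so all 3 pointed the same way, though neither of these passed (adjusted p = 0.365 and 0.316). Ccnd1 also passed in each of the 6 fits that left out an array (adjusted p 0.00174 to 0.0263). Within the first fluidics station, with 1 aged array, its difference was -2.35.

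Ccnd2, another D-type cyclin, had signals of 1835, 2661 and 3732 on young and 2026, 2538 and 2356 on aged arrays. The groups overlapped, with aged values inside the young range, and the difference of -0.20 ± 0.37 did not pass (adjusted p = 0.886). Its sign changed without young replicate 3 (0.056), and its other tested probe sets lay on both sides of 0, from -0.91 to 0.12. Ccne1, cyclin E1 of the G1 to S transition, had signals of 1481, 3121 and 1871 on young and 6706, 4481 and 1515 on aged arrays. Aged replicate 53 lay among the young arrays, and the difference of 0.80 ± 0.52 did not pass (adjusted p = 0.636). Its probe set can bind several transcripts by its name, and its other probe set was dim. Ccne2 was above background on 1 array alone and was at -1.12 ± 1.02.

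Among replication genes, 2 fell and the other 8 tested genes did not pass, 7 of them with a negative difference. Rrm2, which with Rrm1 makes deoxynucleotides and is limiting in S phase, had signals of 9003, 10386 and 10284 on young arrays. On aged arrays it had 1733, 992 and 5081. The young arrays were tightly grouped, the aged arrays were all lower, and aged replicate 53 stood nearest to the young. The difference was -2.26 ± 0.48 (adjusted p = 0.0443). Rrm2 did not pass after quantile normalization (-2.34, adjusted p = 0.0574) or median centring (-2.38, adjusted p = 0.0672), with differences no smaller than before. Leaving out any 1 young array, aged replicate 51 or aged replicate 52 also ended its call (-2.33 to -1.73, adjusted p 0.108 to 0.183). Its other probe sets were at -0.42 (tested, adjusted p = 0.846) and -1.18 (dim).

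Mcm5 had signals of 5088, 4224 and 4180 on young arrays and 1249, 693 and 1498 on aged arrays. No aged array reached the lowest young signal, and the difference was -2.04 ± 0.39 (adjusted p = 0.0275). Leaving out any 1 young array or aged replicate 52 ended its call (-2.09 to -1.71, adjusted p 0.0811 to 0.191). The same held when the fluidics station entered the fit (-1.84, adjusted p = 0.155), which compares only aged replicate 51 with the young arrays. Its other probe sets were at -0.31 (tested, adjusted p = 0.882) and -1.19 (dim). The Rrm2 and Mcm5 probe sets that stood for the genes both have names of the type that can bind several transcripts, and averaging all probe sets of a gene put Rrm2 at -1.29 (adjusted p = 0.443) and Mcm5 at -1.18 (adjusted p = 0.423).

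The other subunits of the MCM helicase, which unwinds DNA at the fork, did not pass. Mcm6 had signals of 1562, 1089 and 2403 on young and 1005, 60 and 1108 on aged arrays. Aged replicate 52 stood far below the rest, the groups overlapped, and the difference was -1.98 ± 1.02 (adjusted p = 0.553), with the other tested probe set at 0.51. Mcm2 had signals of 3681, 3019 and 2773 on young and 2075, 1975 and 3993 on aged arrays. Aged replicate 53 was the highest of the 6 arrays, and the difference was -0.30 ± 0.37 (adjusted p = 0.812). Mcm4 was lower on every aged array (-1.15 ± 0.32, adjusted p = 0.167), and its other probe set was at -1.66. Mcm7 was at -0.56 ± 0.48 and Mcm3 at 0.49 ± 0.51, and for both genes the other tested probe sets lay on both sides of 0.

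Pcna, the sliding clamp of the DNA polymerases, was between 3968 and 4488 on the young and between 1767 and 2603 on the aged arrays. The groups did not overlap, and the difference of -0.90 ± 0.32 did not pass (adjusted p = 0.321). The licensing factor Cdt1 was at -0.76 ± 0.42 and Rrm1 at -0.53 ± 0.37, and neither passed. Cdc6, which loads the helicase together with Cdt1, was dim, with signals of 538, 56 and 143 on young and 1293, 639 and 1024 on aged arrays. Every aged array lay above every young array, and all 6 were under the background level, so no fold is given. The remaining dim replication genes were Gins1, Lig1, Tyms and Tk1, of fork progression, nick sealing and thymidylate supply, with differences between -1.29 and 1.41 and standard errors of 1.00 or more.

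**Figure D4:**
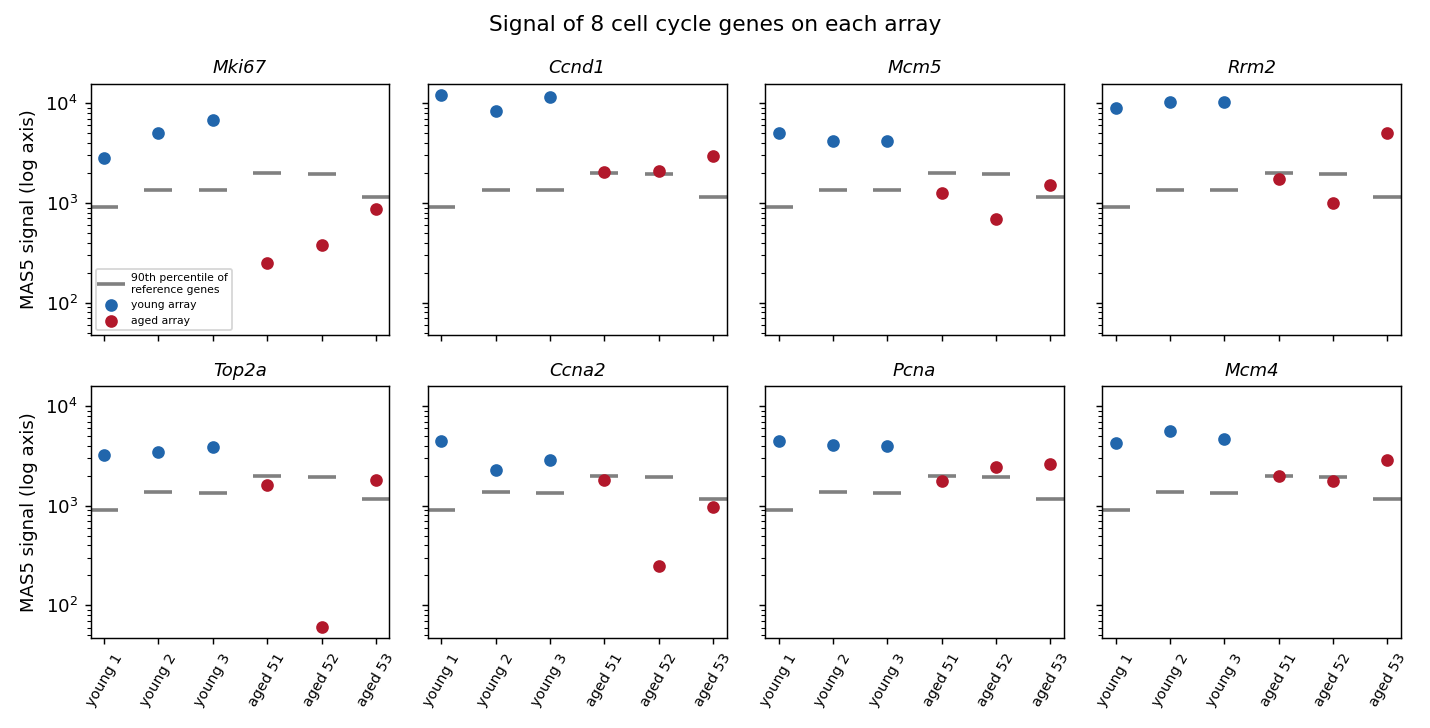
Signal (MAS5 units, log axis) of Mki67, Ccnd1, Mcm5, Rrm2, Top2a, Ccna2, Pcna and Mcm4 on each array, with the 90th percentile of the genes of other tissues on that array as a grey bar. In each of the 8 genes every aged point is below every young point, and aged replicate 52 is lowest for Top2a, at 61. The 8 are among the 9 tested genes with this order of arrays, so they do not show how the 39 genes behave as a whole.

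Among mitosis genes, Mki67 fell and 11 other tested genes did not pass. Mki67 had signals of 2834, 5015 and 6840 on young arrays and 248, 375 and 876 on aged arrays. The groups were far apart, and the difference was -3.41 ± 0.57 (adjusted p = 0.00964). The aged signals lay under the background level on all 3 arrays, and against that level Mki67 was at least 2.8-fold higher in young muscle. Adding 219, the 25th percentile of signals, to each value gave a difference of -2.85. Mki67 had 1 probe set and did not pass without young replicate 2 (-3.35, adjusted p = 0.08) or 3 (-3.12, adjusted p = 0.109).

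Top2a, the topoisomerase that untangles sister chromatids, had signals of 3224, 3493 and 3862 on young arrays and 1631, 61 and 1828 on aged arrays. Aged replicate 52 stood far below the other aged arrays, and the difference of -2.63 ± 1.02 did not pass (adjusted p = 0.39). Without aged replicate 52 it was -1.03. The other tested Top2a probe set was at 0.28. Ccna2, cyclin A2 of S phase and early mitosis, had signals of 4465, 2283 and 2894 on young and 1803, 249 and 977 on aged arrays. The groups did not overlap, and the difference of -2.02 ± 0.65 did not pass (adjusted p = 0.268), with the other probe set at 0.13. By the first of these probe sets the young mean was 1.88-fold the background level of the aged arrays. No minimum fold is given for Ccna2, because the difference did not pass.

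Mad2l1, of the spindle checkpoint, was lower on every aged array and did not pass (-1.16 ± 0.43, adjusted p = 0.365). Cdc20, the activator of the anaphase promoting complex, had a difference of -0.85 ± 0.38 (adjusted p = 0.485), and its other tested probe set had one of 0.89. Birc5 (survivin), Aurka (Aurora A kinase) and the kinetochore protein Cenpf had overlapping groups and differences of -0.87, -0.66 and -0.37. Another Cenpf probe set had a larger difference, -2.91 ± 0.82, which also missed the threshold (adjusted p = 0.176). Prc1, which bundles spindle microtubules, was at -0.30 ± 0.57, and at 0.57 within the first station.

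The positive differences among tested mitosis genes were those of Tpx2, Cenpa and Nusap1, and none passed. Tpx2, a spindle assembly factor, had signals of 5120, 8480 and 17969 on young and 26161, 33359 and 15275 on aged arrays. Young replicate 3 overlapped with the aged arrays, and the difference was 1.36 ± 0.41 (adjusted p = 0.211), and 1.85 without young replicate 3 (adjusted p = 0.0451). Another bright probe set of Tpx2 was at 1.01, while a dimmer tested one was at -1.38. Cenpa, the centromeric histone, was at 1.41 ± 0.49 by its brightest probe set (adjusted p = 0.317) and at -2.15 ± 0.70 by its other tested one (adjusted p = 0.274). Nusap1, of the spindle, was at 1.30 ± 0.77. By the brightest probe sets of Cenpa and Nusap1 every aged array lay above every young array, though Nusap1 was under the background level on every array.

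Bub1, a kinase of the spindle checkpoint, was dim, with signals of 900, 368 and 610 on young and 100, 708 and 34 on aged arrays. The groups overlapped and all values were under the background level. The other dim mitosis genes were Ccnb2, Bub1b, Plk1, Aurkb, Kif11, Kif20a and Ube2c, with differences between -1.56 and 1.40 and standard errors of 1.05 or more. At this brightness a difference was not detectable, and no order among these genes can be read.

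Of the 39 genes 27 had several probe sets, and 16 had several that were tested. In 7 of these 16 the tested probe sets pointed in 1 direction, and in 9 in both. Ccnd1, Mcm4, Mcm5 and Rrm2 were among the 7, though the other tested probe sets of Mcm5 and Rrm2 were at only -0.31 ± 0.58 and -0.42 ± 0.62. Of the 49 tested probe sets 4 passed, those already named. Of the 39 probe sets that stood for a gene, 17 had names ending in _x_at, _s_at or _a_at, which mark sets that can bind several transcripts.

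The change of replication genes against that of mitosis genes depended on whether dim genes were counted. The median was -0.56 over 15 replication genes and -0.51 over 20 mitosis genes. Of the tested genes 9 of 10 replication genes and 9 of 12 mitosis genes had a negative difference. The mean log2 signal of replication genes was above that of mitosis genes by 0.65, 0.62 and 0.70 on young replicates 1, 2 and 3. On aged replicates 51, 52 and 53 the excess was 0.48, 0.10 and 1.22. The aged arrays spread on both sides of the young ones, and the mean excess moved by -0.055, less than the spread between arrays (SD 0.40). Without aged replicate 52 it was 0.20, and without aged replicate 53 it was -0.37. Over the tested genes alone the excess was 0.64, 0.49 and 0.57 on young and 0.04, 0.12 and 0.60 on aged arrays. Aged replicates 51 and 52 lay below the young arrays and aged replicate 53 among them, and the mean excess moved by -0.32, more than the spread between arrays (SD 0.22). Because the filter keeps genes partly for their brightness in 1 group, neither value is given a test. The replication mean itself lay between 10.35 and 10.45 on young arrays and was 10.15, 9.15 and 10.49 on aged arrays, so aged replicate 53 did not lie below the young arrays. The mitosis mean lay between 9.73 and 9.79 on young arrays and was 9.67, 9.05 and 9.27 on aged arrays, all lower. With the station as a covariate or within the first station the median of mitosis genes was 0.11, from aged replicate 51 against the young arrays. It was 0.060 with the RNA quality covariate, and 0.36 over probe sets of the plain kind alone. The median of replication genes kept its sign in these fits, at -0.67, -1.08 and -0.31.

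Of further cell cycle genes, a list of 119 named in the pathway beside the members, 115 had a probe set and 86 were tested. Cks1b fell and the other 85 did not pass, against 1.00% lower and 0.391% higher of all tested genes. Cks1b, a small subunit of the cyclin-dependent kinases, had signals of 9802, 9110 and 9201 on young and 2642, 2874 and 5243 on aged arrays. The young arrays were alike and all above the aged, and the difference was -1.46 ± 0.30 (adjusted p = 0.0418). Cks1b did not pass after median centring (-1.57, adjusted p = 0.106), with the station in the fit (-1.83, adjusted p = 0.0584), or without any 1 array other than aged replicate 53 (-1.48 to -1.27, adjusted p 0.0894 to 0.207). With the spread not modelled by brightness its adjusted p was 0.407, and with all its probe sets averaged its difference was -0.019 (adjusted p = 0.995). Its paralogue Cks2 had signals of 6629, 5965 and 7655 on young and 426, 1244 and 2822 on aged arrays. Its groups did not overlap, and it missed the threshold (-2.55 ± 0.55, adjusted p = 0.052).

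By list, 23 of 32 tested mitosis genes beside the members were negative, with a median of -0.76, and 9 were lower at an unadjusted p under 0.05, against 6.60% of all tested genes. Of 31 tested replication genes beside the members 19 were negative (median -0.16), and the smallest p-values were those of Rpa2, of the single-strand binding complex (-2.64 ± 0.90, adjusted p = 0.297), and Uhrf1, which guides DNA methylation after replication (-2.17 ± 0.82, adjusted p = 0.375). Of 24 tested regulators of G1, such as cyclin-dependent kinases, Rb family and E2F genes, 16 were positive (median 0.14) and none passed, with Cdk6 at 1.37 ± 0.53 (adjusted p = 0.388) and Lin52 at 1.74 ± 0.96 (adjusted p = 0.583).

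**Figure D5:**
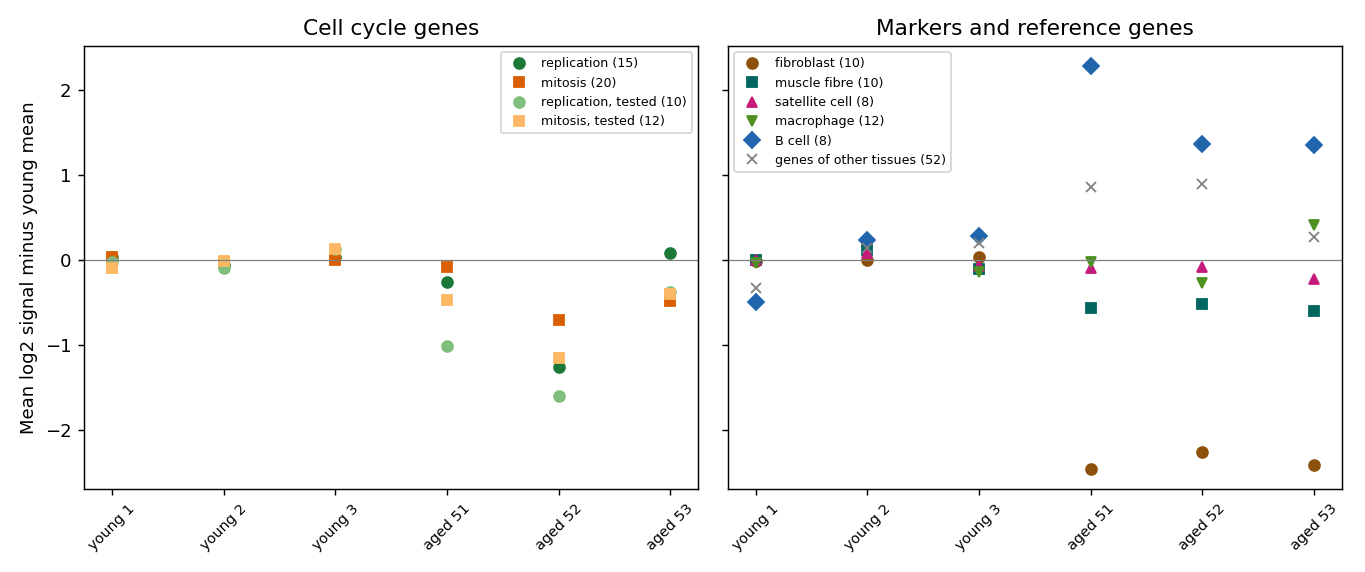
Mean log2 signal of each list on each array, minus the mean of the young arrays (vertical axis), for cell cycle genes on the left and for markers of cell types and genes of other tissues on the right, with the number of genes in brackets. Fibroblast markers lie lower on the aged arrays by 2.38 on average, B cell markers and genes of other tissues lie higher, and aged replicate 52 is the lowest for the replication and mitosis genes.

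Among markers of cell types, only the fibroblast, B cell and fat cell lists held genes past the threshold. Muscle fibre markers were the brightest list, and all 10 were tested with negative differences and 0 past the threshold (median -0.64). Of 10 fibroblast markers 6 fell, led by Col1a1 (-5.71 ± 0.32, adjusted p = 3.26e-06). The summed signal of all 10 was 777117 or more on young and 121223 or less on aged arrays. The collagens Col1a1, Col1a2 and Col3a1 were the brightest of the 10 on every young array and weigh most in that sum. All 10 differences were negative, but Pdgfra (-0.23 ± 0.31, adjusted p = 0.832), Dcn (-0.73 ± 0.20, adjusted p = 0.157), Lum and Thy1 did not pass. Satellite cell markers were at a median of 0.37, with 0 of 8 past the threshold and summed signals of 10685 to 12705 on young and 10150 to 12993 on aged arrays. Their mean log2 signal went the other way, between 10.08 and 10.23 on young and between 9.92 and 10.07 on aged arrays. Of the 8, 3 were negative and 5 positive, from -1.92 ± 0.64 for Myog, of differentiating myoblasts (adjusted p = 0.282), to 1.62 ± 0.67 for Itga7, a laminin receptor (adjusted p = 0.435). The other negative ones were Pax7 (-1.87 ± 0.97, adjusted p = 0.553) and Myf5 (-1.57 ± 1.00, adjusted p = 0.634), above background on 1 and 2 arrays. Macrophage and endothelial markers had 0 of 8 and 0 of 7 tested genes past the threshold, with medians of 0.22 and -0.10.

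Of 4 tested B cell markers Ighm rose (6.28 ± 0.73, adjusted p = 0.000977), and the summed signal of the 8 markers was 4227 to 6634 on young and 13304 to 42438 on aged arrays. Ighm was the brightest of the 8 on each aged array (30249, 5156 and 17056) and weighs most in that sum. Jchain (2.94 ± 0.70, adjusted p = 0.0911), Cd79a (0.64 ± 0.74, adjusted p = 0.806) and Cd22 (-0.22 ± 0.47, adjusted p = 0.902) did not pass. Of the 8 differences 6 were positive and 2 negative. Of 5 tested T cell markers 0 passed (median 0.72), and of 5 tested fat cell markers 3 rose. None of the 5 red blood cell markers passed the filter, and none was above background on any array. The part of these cell types in the values of the cell cycle genes was not tested.

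The ratio of 3 prime to 5 prime signal of the control transcripts lay between 1.71 and 1.77 on the log2 scale on young and between 2.00 and 2.86 on aged arrays (exact permutation test, two-sided, p = 0.1, the smallest p that 3 against 3 arrays allow). With this ratio as a covariate Ccnd1, Rrm2 and Mki67 passed and Mcm5 did not, though its difference was larger (-2.57, adjusted p = 0.0807). The ratio was higher on every aged array than on any young array, so this fit cannot tell age and RNA quality apart. Fluidics station 1 served the 3 young arrays and aged replicate 51, and station 2 served aged replicates 52 and 53, under another protocol name. With the station as a covariate Ccnd1 and Mki67 passed (-2.35 and -4.21), and Rrm2 was at -2.51 (adjusted p = 0.138). Station 2 held no young array, so these differences are those of aged replicate 51 alone from the young arrays. The fit within station 1 sets 1 aged array against 3 young ones and takes the spread from the young arrays. It gives the same differences, so these fits are not separate checks. When the spread was not modelled as depending on brightness, 0 of the 26 genes passed and 21 of 22519 probe sets did, against 237 with the trend (1.05%).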

How the data were processed

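The deposited intensity values are MAS5 signals on a linear scale, 1 column per array, per the submitters' processing notes, with no version or settings given there. The 2% trimmed mean of the deposited signals was 1500 on every array, so arrays were already scaled. Signals were taken to log2, 64 control probe sets were left out, and probe sets with a mean log2 signal under 9.08 were left out as dim. The 22519 others were fitted with limma 3.58.1 in R 4.3.3 (lmFit, eBayes with trend), aged against young, two-sided, with Benjamini-Hochberg adjustment at 0.05; the number of arrays limits the precision. The code was tested on simulated data. Dim genes are values from the same fit with no filter.

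Probe sets were named from the platform gene table where it gives 1 symbol: 34958 had 1 and 932 several. Values on every array are given for genes that pass, genes above background on all 6 arrays and the 4 largest differences among replication and among mitosis genes; of the further cell cycle lists, for genes that pass, with differences for the 2 smallest p-values of the lists without a call. Cks2 was added after its values were seen. The members and lists were chosen with earlier results of these data known, and no list was tested. Alternatives were the scaling, the filter, a pseudocount, no trend, the fluidics station, the RNA quality ratio, other choices of probe set, other background levels and leaving out each array. Figures used Python 3.11.15 and matplotlib 3.10.9.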

Additional observations from a re-analysis of the deposited data

How the results depend on the processing

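The median change of all 39 genes stayed negative under all 17 alternatives (-0.82 to -0.31). Members past the threshold were lower in aged muscle under each alternative, with 1 exception. Tpx2 was higher without young replicate 3 (1.85, adjusted p = 0.0451), where Ccnd1 alone of the reported members passed. The members past the threshold, 4 as reported, numbered 0 without modelling the spread by brightness (no trend), 2 with the station as a covariate, over plain probe sets alone or with probe sets averaged, and 1 to 4 when an array was left out. Tested probe sets past the threshold, 237 as reported, numbered 21 without the trend, 365 within the first station, 138 with the RNA quality covariate, 136 over plain probe sets, and 124 to 342 when an array was left out. The median of mitosis genes (-0.51) was 0.11 with the station as a covariate and within the first station, 0.060 with the RNA quality covariate and 0.36 over plain probe sets. Both station fits set aged replicate 51 alone against the young arrays. With the RNA quality covariate the median of replication genes was -1.08 and the replication minus mitosis change -0.74. Further cell cycle genes past the threshold, 1 as reported, numbered 0 after median centring, without the trend or with probe sets averaged, 2 with no filter, a stricter filter, a pseudocount or the station as a covariate, 3 with the RNA quality covariate, 4 within the first station, and 0 to 3 when an array was left out; these alternatives were chosen after seeing the data. Members above background on all 6 arrays, 5 as reported, numbered 9, 1 and 14 at the 75th percentile, the 95th percentile and the median of all probe sets. Direction reversed for Prc1 with the station as a covariate and within the first station (both 0.57) and without aged replicate 52 (0.22), for Top2a (0.28) and Cdc20 (0.89) over plain probe sets, and for Ccnd2 without young replicate 3 (0.056; -0.46 to 0.056 when an array was left out). Plain probe sets alone replace the probe set of a gene and leave fewer genes; for the other alternatives the cause was not tested. No paired analysis was possible because the young and aged arrays share no replicate number. Signal over background limits the 13 dim genes and every gene whose aged signals lay under the background level.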
